A study of Mus musculus with 9 samples.

Results

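Intercalated cell acid-base genes are described here as a group of 10 genes taken by symbol from both deposited count tables, in which all 10 were present among 52160 symbols analysed and all 10 had enough counts to be tested. They are the anion exchangers Slc4a1, Slc4a9 and Slc26a4, the vacuolar proton pump subunits Atp6v1b1, Atp6v0d2 and Atp6v1g3, the transcription factors Foxi1 and Hmx2, the carbonic anhydrase Car2 and the ammonia channel Rhcg. The libraries were made from polyadenylated RNA of whole kidney, taken from mice of strain background C57Bl/6N at 16 weeks of age, in 3 groups of 3. WT animals carried unmodified Ybx1, which encodes the Y-box binding protein 1. Ybx1ΔPod animals (ΔPod) lacked Ybx1 in podocytes, which wrap the capillaries of the glomerulus. Ybx1K2A animals (K2A) carried, also in podocytes only, a form of Ybx1 in which K299A and K302A, both encoded in exon 7, remove the lysines whose acetylation is needed for secretion. The Cre driver and the number of founder lines are not given in the sources used here, and wild-type mice came from a commercial breeder. The labels do not say that the libraries came from separate animals, so p-values measure the spread between these samples.

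Intercalated cells are the acid-base cells of the connecting tubule and collecting duct, where they lie among the principal cells that take up sodium and water. Type A cells secrete acid: a vacuolar proton pump moves protons into the urine, Car2 supplies them from carbon dioxide and water, and Slc4a1 passes bicarbonate to the blood. Type B cells secrete bicarbonate through Slc26a4 (pendrin) at the urinary side and carry Slc4a9 at the blood side, and Foxi1, a forkhead factor, is required for intercalated cells to form and to express their pump and exchangers. The study's title names crosstalk from glomerulus to tubule, and the comparisons here ask whether transcripts of these tubule cells differed when Ybx1 was altered in podocytes.

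Promoters are shown for a pair of pump subunits that took opposite patterns across the libraries and for Slc26a4, which followed the first of them. The windows are the 250 bases before the RefSeq transcript start on GRCm38.p6, 5′ to 3′ on the gene's strand, for Atp6v1b1 at chr6:83742767-83743016 (plus strand), Slc26a4 at chr12:31559985-31560234 (minus strand) and Atp6v1g3 at chr1:138273488-138273737 (plus strand). Capitals mark the forkhead core TGTTTAC or its reverse complement GTAAACA, which was searched on both strands.
Atp6v1b1 promoter: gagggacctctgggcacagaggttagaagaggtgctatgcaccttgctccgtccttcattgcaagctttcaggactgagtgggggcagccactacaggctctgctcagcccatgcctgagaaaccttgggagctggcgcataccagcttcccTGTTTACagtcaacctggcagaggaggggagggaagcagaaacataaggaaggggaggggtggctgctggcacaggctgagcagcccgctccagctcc
Slc26a4 promoter: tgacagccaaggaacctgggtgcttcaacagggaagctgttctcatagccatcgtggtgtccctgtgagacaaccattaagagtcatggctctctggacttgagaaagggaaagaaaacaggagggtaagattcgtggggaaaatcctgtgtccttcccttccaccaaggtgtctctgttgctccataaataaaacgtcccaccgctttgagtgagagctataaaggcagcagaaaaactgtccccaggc
Atp6v1g3 promoter: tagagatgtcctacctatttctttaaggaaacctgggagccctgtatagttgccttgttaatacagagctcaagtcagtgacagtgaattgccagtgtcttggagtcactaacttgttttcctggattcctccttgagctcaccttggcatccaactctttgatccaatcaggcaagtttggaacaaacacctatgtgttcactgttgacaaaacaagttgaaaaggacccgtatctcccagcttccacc
The core occurred in Atp6v1b1, where it starts 98 bases before the transcript start, and in neither of the other two. Entries existed for 6 of the 10 genes (7 windows, since Hmx2 has a pair of starts), and the windows of Rhcg, Foxi1 and Hmx2 also held no such letters. Of all 32851 RefSeq windows of this length, 1040 (3.17%) held the core, so a match in 1 of 7 windows is a description of sequence alone.

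Total counts per library ran from 30776806 to 46852490. Levels are given as CPM, a gene's count scaled to the TMM-normalised library total. Ybx1, the targeted gene, was at 1190, 1585 and 1185 CPM in WT 1, WT 2 and WT 3, at 1167, 881 and 605 CPM in ΔPod 1, ΔPod 2 and ΔPod 3, and at 1078, 1152 and 554 CPM in K2A 1, K2A 2 and K2A 3. All 6 mutant libraries lay below all 3 WT libraries, but Ybx1 did not pass the edgeR quasi-likelihood test (adjusted p = 0.465 in ΔPod and 0.725 in K2A). Ybx1 is expressed by many kidney cells, so a change in podocytes alone is checked only weakly by its level in whole kidney. The libraries also differed in how counts depended on transcript length. The length slope, which is the slope of a library's log2 CPM (each gene centred on its mean over 9 libraries) on log2 transcript length, was above 0 in WT 1, WT 3, ΔPod 3 and K2A 3 (0.252 to 0.366) and below 0 in the other 5 libraries (-0.470 to -0.0769). Transcripts of 80 ribosomal protein genes took 0.973% to 1.14% of counts in the former 4 and 2.39% to 7.76% in the latter 5. Both kinds of library occur in each group, in unequal number, and what produced them was not tested. Counts of 4 Y-linked genes summed to between 3404 and 4148 in the WT libraries, to 0 in every ΔPod library and to between 0 and 22 in the K2A libraries, while Xist was at 0 in WT and between 470 and 13675 counts in the others. Genotype and sex therefore cannot be told apart in any comparison with WT. As wild-type mice came from a commercial breeder, a difference in the source of the mice cannot be told apart from genotype there either. Markers of proximal tubule (summed level 7429 to 22748 CPM) and thick limb (3574 to 8844 CPM) were present in every library, as the labelled tissue has them.

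Levels were compared between genes as CPM per kilobase of the longest transcript, and counts of the 10 genes ranged from 135 to 25144 per library. In WT, Car2 was at 221 ± 8.43 CPM per kilobase (SD, n = 3), above all others. Rhcg at 48.3 ± 11.1, Atp6v1b1 at 40.5 ± 12.9 and Atp6v1g3 at 38.2 ± 15.3 CPM per kilobase (SD, n = 3) followed and did not differ beyond their spread. Slc26a4 at 27.5 ± 8.27 CPM per kilobase overlapped Atp6v1b1 and Atp6v1g3 in spread. It did not overlap Rhcg, since its highest WT value was 33.5 and the lowest of Rhcg 35.9 CPM per kilobase. Next came Atp6v0d2 at 14.6 ± 1.96, Foxi1 at 12.1 ± 3.80, Slc4a9 at 11.9 ± 2.597 and Slc4a1 at 10.8 ± 4.83 CPM per kilobase, which also lay within each other's spread. Hmx2 was lowest at 3.47 ± 0.967 CPM per kilobase. Over all 9 libraries the highest value of a gene was between 1.49 times (Car2) and 13.5 times (Slc4a1) its lowest, with a median of 3.96 times over the 10 genes. In whole-kidney RNA, fewer intercalated cells and less RNA per cell cannot be told apart.

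**Figure D1:**
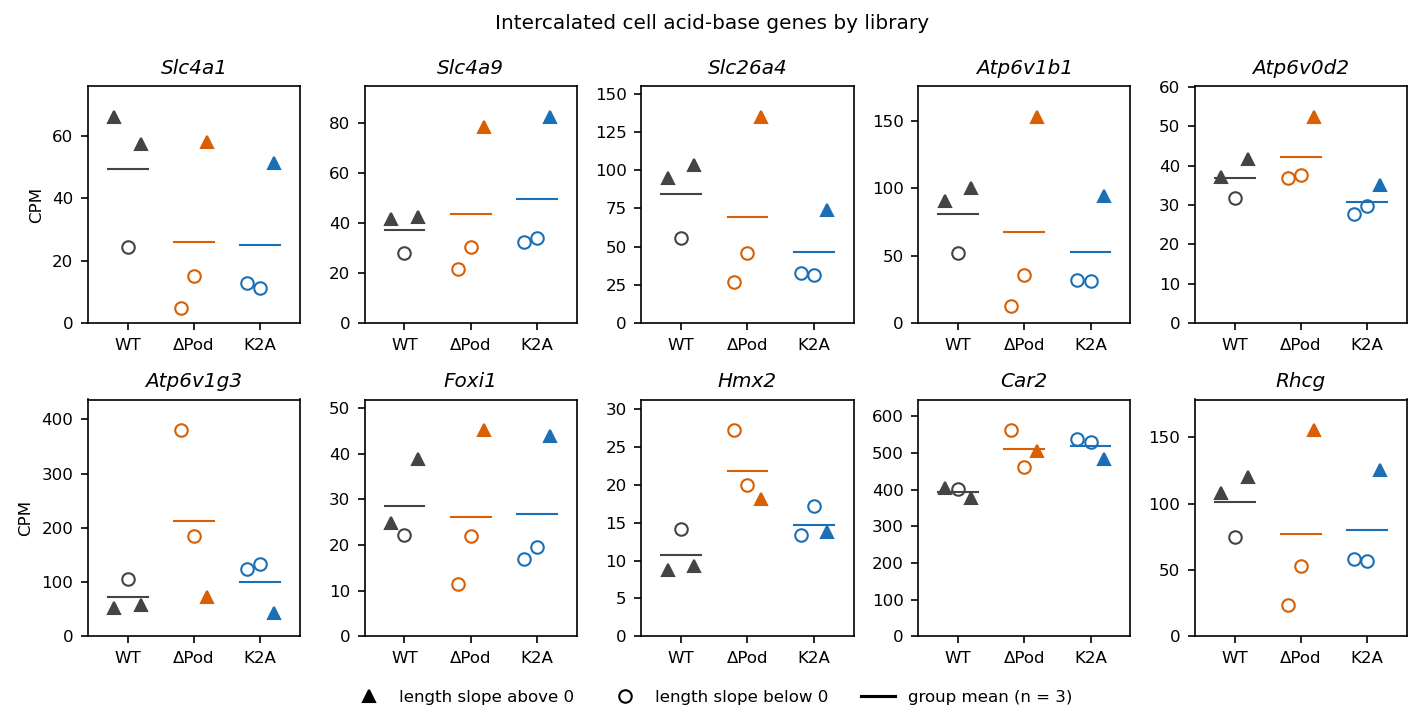
Level of each gene in CPM (vertical axis, starting at 0) in the 9 libraries, by group; triangles are libraries with a length slope above 0, open circles those below 0, and horizontal lines are group means (n = 3). Slc4a1, Slc26a4, Atp6v1b1 and Rhcg are high in the triangles of every group, Atp6v1g3 is low there, and Car2 is higher in all ΔPod and K2A libraries than in all WT libraries.

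No gene of the 10 passed the edgeR quasi-likelihood test (Benjamini-Hochberg adjusted p below 0.05 over 18067 tested genes) in any of the 3 comparisons. Of all tested genes, 178 (0.985%) passed between ΔPod and WT, 153 (0.847%) between K2A and WT and 0 (0%) between K2A and ΔPod. At an unadjusted p below 0.05, 2 of the 10 (Hmx2 and Atp6v1g3) were reached between ΔPod and WT, against 13.8% of all tested genes. That count was 0 of 10 in the other comparisons, where 10.6% and 2.01% of all genes had such a p. DESeq2 also called 0 of the 10 in each comparison, where it called 3.78%, 3.57% and 0.0698% of all genes. The median log2 fold change of the 10 was 0.03 between ΔPod and WT, where that of all genes was 0.08, and -0.18 between K2A and WT, where that of all genes was 0.09. Between K2A and ΔPod the medians were -0.20 for the 10 and -0.01 for all genes.

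Groups that did not overlap were counted for the 10 genes and for all tested genes. Hmx2 and Car2 lay higher in every ΔPod library than in every WT library (2 of 10, against 18.2% of all genes without overlap in either direction and 8.73% higher). Car2 alone did so in K2A against WT (1 of 10, against 20.1% and 11%). Atp6v0d2 and Hmx2 were lower in every K2A library than in every ΔPod library (2 of 10, against 5.11% and 1.61%).

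When the length slope was added as a covariate to the same edgeR fit, standard errors of the 10 fold changes between ΔPod and WT went from between 0.23 and 0.92 to between 0.11 and 0.23 on the log2 scale. In that fit 3 of the 10 passed between ΔPod and WT, all higher (Slc4a9, Atp6v1g3 and Hmx2), where 14.3% of all genes passed and 6.17% were higher. Between K2A and WT 1 of the 10 passed (Slc4a9, higher), where 15.9% of all genes did and 7.47% were higher. Between K2A and ΔPod 1 of the 10 did (Atp6v1g3, lower), where 0.188% of all genes did and 0.083% were lower. With the sign of the slope as a term instead, 0 of the 10 passed in each comparison, against 3.96%, 4.09% and 0% of all genes. In the fit with the slope itself, Ybx1 was lower by log2 fold changes of -0.96 (edgeR adjusted p = 0.00089) in ΔPod and -0.84 (edgeR adjusted p = 0.0016) in K2A. Since many kidney cells express Ybx1, these values do not check the change in podocytes. What produced them was not tested, and sex and source of the mice cannot be told apart from genotype in them.

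**Figure D2:**
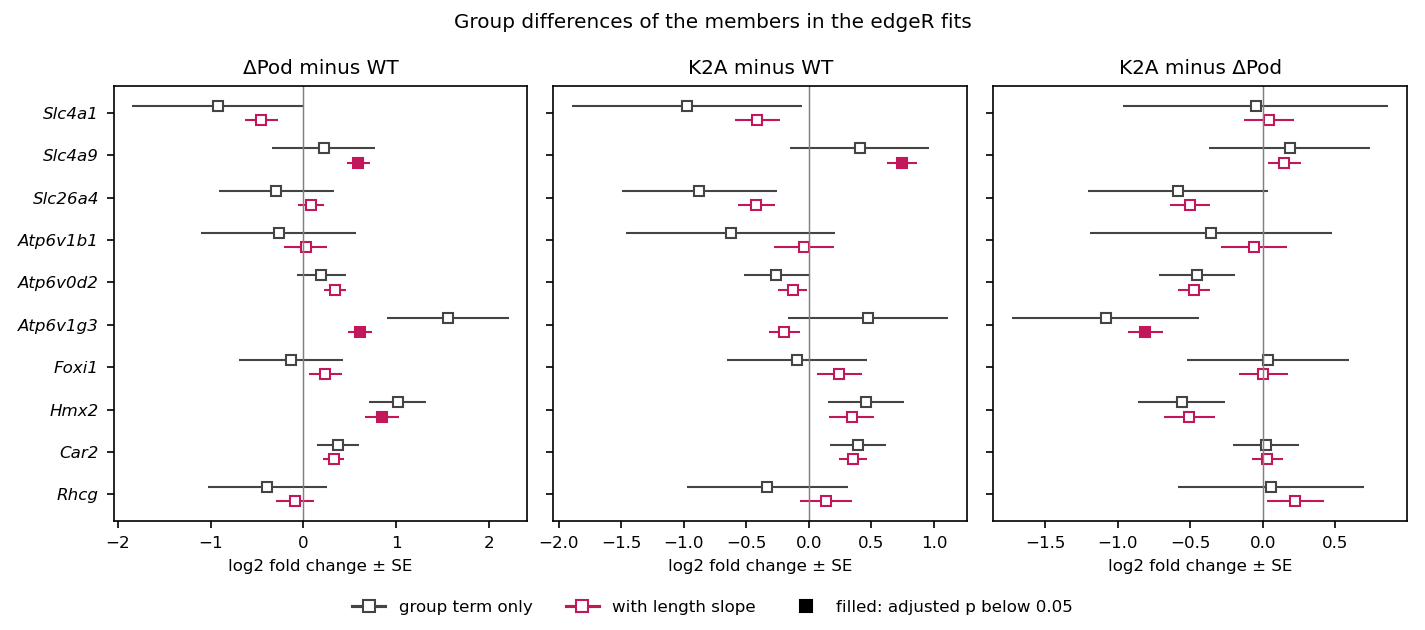
Log2 fold changes with standard errors for the 10 genes in the 3 comparisons, from the edgeR fit with the group alone (grey) and with the length slope as a covariate (magenta); filled squares have an adjusted p below 0.05. With the group alone 0 of the 10 passed, and with the slope Slc4a9, Atp6v1g3 and Hmx2 passed between ΔPod and WT, Slc4a9 between K2A and WT, and Atp6v1g3 between K2A and ΔPod.

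Of the exchangers, Slc4a1 (chr11:102348824-102366203, minus strand, mm10), whose kidney form is the bicarbonate exit of type A cells, was the most variable gene of the group. It was at 66.1, 24.5 and 57.3 CPM in WT 1, WT 2 and WT 3, at 4.88, 14.9 and 58.1 CPM in ΔPod 1, ΔPod 2 and ΔPod 3, and at 12.8, 11.2 and 51.3 CPM in K2A 1, K2A 2 and K2A 3. The 4 libraries with a positive length slope held 51.3 to 66.1 CPM and the 5 others 4.88 to 24.5 CPM, and the 3 genotypes overlapped. Its log2 fold change was -0.92 (SE 0.92, edgeR adjusted p = 0.613) between ΔPod and WT and -0.97 (SE 0.92, edgeR adjusted p = 0.774) between K2A and WT. With the slope as a covariate these values were -0.45 (SE 0.18, edgeR adjusted p = 0.119) and -0.41 (SE 0.18, edgeR adjusted p = 0.155), and of the 9 fits with the slope that left out a library, the K2A value passed in the one without ΔPod 1 (-0.49, edgeR adjusted p = 0.0261).

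Slc4a1 is also the band 3 protein of red cells, so erythroid transcripts were read beside it. The summed level of 11 erythroid markers ran from 205 to 869 CPM in WT, from 141 to 1012 CPM in ΔPod and from 402 to 586 CPM in K2A, most of it globin. Of the 11 markers, 7 had enough counts to be tested. Among them Alas2, the erythroid enzyme of heme synthesis, was at 4.37 to 23.7 CPM and the transcription factor Klf1 at 1.3 to 3.12 CPM, while Rhag was at 0 in all 9 libraries. The part of red cell RNA in the Slc4a1 values was not tested.

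Slc26a4 (chr12:31519827-31559969, minus strand), the apical chloride-bicarbonate exchanger pendrin of type B cells, was at 95.1, 55.7 and 103 CPM in WT 1, WT 2 and WT 3. It was at 26.9, 45.6 and 135 CPM in ΔPod 1, ΔPod 2 and ΔPod 3 and at 32.9, 31.3 and 74.1 CPM in K2A 1, K2A 2 and K2A 3. ΔPod 3 held the highest value and ΔPod 1 the lowest, and all 3 groups overlapped. Against WT the log2 fold change was -0.29 (SE 0.62, edgeR adjusted p = 0.809) in ΔPod and -0.88 (SE 0.62, edgeR adjusted p = 0.713) in K2A. With the slope the estimate for ΔPod was 0.082, of opposite sign, and that for K2A -0.42 (SE 0.15, edgeR adjusted p = 0.0849). The K2A value passed in the slope fits without ΔPod 1 (-0.47, edgeR adjusted p = 0.0353) and without ΔPod 3 (-0.53, edgeR adjusted p = 0.0125).

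Slc4a9, an anion exchanger of the blood-facing membrane of type B cells, was the one exchanger with higher group means in both mutants. Its levels were 41.6, 27.9 and 42.6 CPM in WT 1, WT 2 and WT 3, then 21.7, 30.6 and 78.4 CPM in ΔPod 1, ΔPod 2 and ΔPod 3, and 32.3, 33.9 and 82.5 CPM in K2A 1, K2A 2 and K2A 3. The groups overlapped, since only ΔPod 3 and K2A 3 exceeded every WT library. Compared with libraries of the same slope sign, ΔPod 3 and K2A 3 stood at 1.86 and 1.96 times the mean of WT 1 and WT 3. Among the libraries with a negative slope, the means of 26.2 CPM in ΔPod and 33.1 CPM in K2A stood at 0.937 and 1.18 times WT 2, so there the difference was small and of opposite sign in ΔPod. Slopes were not matched within a sign. WT 2 had a slope of -0.0769 and the mutant libraries of negative slope had -0.470 to -0.175. This limit holds for every ratio within slope sign given here.

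With the group alone, the log2 fold change of Slc4a9 was 0.22 (SE 0.56, edgeR adjusted p = 0.838) in ΔPod and 0.41 (SE 0.56, edgeR adjusted p = 0.822) in K2A. With the slope as a covariate Slc4a9 was higher by 0.74 in K2A (SE 0.12, edgeR adjusted p = 0.00376), and this call held in 9 of 9 fits that left out a library, with an adjusted p from edgeR between 0.00228 and 0.0239. In ΔPod it was higher by 0.59 (SE 0.12, edgeR adjusted p = 0.0128) in the same kind of fit. That call was lost without WT 1 (edgeR adjusted p = 0.0603), without WT 3 (0.0560) and without ΔPod 3 (0.0842). With the sign of the slope as a term in place of the slope itself, Slc4a9 did not pass in either comparison (edgeR adjusted p = 0.375 in ΔPod and 0.215 in K2A).

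The balance between exchangers was also read as ratios within a library, in which the depth of the library cancels. On the scale of CPM per kilobase, Slc4a9 stood at 0.427, 0.490 and 0.403 times Slc26a4 in WT 1, WT 2 and WT 3, at 0.788, 0.655 and 0.567 times in ΔPod 1, ΔPod 2 and ΔPod 3, and at 0.956, 1.06 and 1.09 times in K2A 1, K2A 2 and K2A 3. Both genes mark type B cells and have transcripts of similar length (3152 and 3075 bases). The 3 groups did not overlap in this ratio, and the order WT, ΔPod, K2A was the same among the libraries of positive slope and among those of negative slope. The ratio was chosen after the values were known and is given as a description, and how often other pairs of genes separate the groups in this way was not tested. By contrast, Slc26a4 over Slc4a1, a type B over a type A exchanger, was 2.13, 3.36 and 2.66 in WT, 8.15, 4.53 and 3.43 in ΔPod and 3.80, 4.12 and 2.14 in K2A on the same scale. That ratio overlapped between K2A and both other groups, while every ΔPod value lay above every WT value. It ran from 2.13 to 3.43 in the libraries of positive slope and from 3.36 to 8.15 in those of negative slope. Slc4a9 over Slc4a1 was 0.908 to 1.65 in WT, 1.95 to 6.42 in ΔPod and 2.32 to 4.35 in K2A. Both mutants thus lay above WT in that ratio and overlapped each other.

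**Figure D3:**
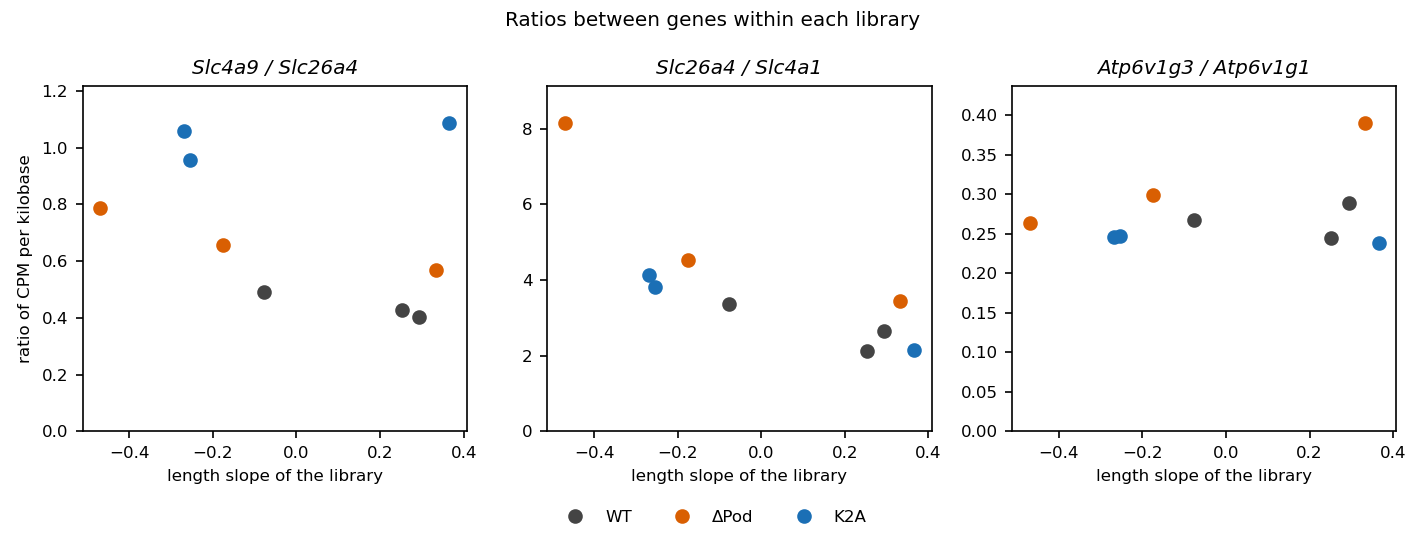
Ratios of CPM per kilobase between a pair of genes within each library (vertical axis, starting at 0) against the length slope of the library; each point is 1 library, coloured by group. Slc4a9 over Slc26a4 separates WT (0.403 to 0.490), ΔPod (0.567 to 0.788) and K2A (0.956 to 1.09), whereas Slc26a4 over Slc4a1 and Atp6v1g3 over Atp6v1g1 do not separate all 3 groups.

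The vacuolar proton pump is built of a V1 sector, which splits ATP, and a V0 sector in the membrane, and intercalated cells use kidney forms of several subunits. Atp6v1b1 (chr6:83742990-83758855, plus strand) encodes the B1 subunit of V1, whose loss causes distal renal tubular acidosis. It was at 90.7, 51.8 and 101 CPM in WT 1, WT 2 and WT 3, at 12.8, 35.9 and 153 CPM in ΔPod 1, ΔPod 2 and ΔPod 3, and at 32.2, 31.1 and 94.5 CPM in K2A 1, K2A 2 and K2A 3. Both the highest and the lowest of the 9 values were ΔPod libraries, 11.9 times apart, and the groups overlapped. For Atp6v1b1 the log2 fold change was -0.27 (SE 0.83, edgeR adjusted p = 0.869) in ΔPod and -0.62 (SE 0.84, edgeR adjusted p = 0.821) in K2A against WT. With the slope it was 0.023 (SE 0.23) in ΔPod, of opposite sign, and -0.039 (SE 0.24) in K2A.

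Atp6v1g3 (chr1:138273738-138289462, plus strand) encodes the G3 form of a stalk subunit of V1. Its values were 52.3, 105 and 58.8 CPM in WT 1, WT 2 and WT 3, 380, 185 and 72.9 CPM in ΔPod 1, ΔPod 2 and ΔPod 3, and 124, 134 and 42.8 CPM in K2A 1, K2A 2 and K2A 3. ΔPod 1 was the highest library for Atp6v1g3 and the lowest for Atp6v1b1, although the proteins belong to 1 pump, and the groups overlapped. On the scale of CPM per kilobase, Atp6v1b1 ranged from 0.0319 times Atp6v1g3 in ΔPod 1 to 2.08 times in K2A 3. The log2 fold change of Atp6v1g3 was 1.56 (SE 0.65, edgeR adjusted p = 0.352) in ΔPod and 0.48 (SE 0.64, edgeR adjusted p = 0.822) in K2A against WT.

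With the slope as a covariate, Atp6v1g3 was higher in ΔPod than in WT by 0.61 (SE 0.13, edgeR adjusted p = 0.0143) and lower in K2A than in ΔPod by a log2 fold change of -0.81 (SE 0.12, edgeR adjusted p = 0.0477). Against WT the K2A estimate was then -0.20 (SE 0.12, edgeR adjusted p = 0.321), of opposite sign to that without the slope. The ΔPod call was lost without WT 1 (edgeR adjusted p = 0.0712) and without WT 2 (0.0806). The call between K2A and ΔPod passed in 2 of the 9 fits that left out a library, those without ΔPod 3 (edgeR adjusted p = 0.0377) and without K2A 3 (0.00722). In the other 7 its adjusted p from edgeR was 0.0965, 0.0825 and 0.0902 without WT 1, WT 2 and WT 3, 0.0686 and 0.0761 without ΔPod 1 and ΔPod 2, and 0.164 and 0.274 without K2A 1 and K2A 2. With the sign of the slope as a term, Atp6v1g3 did not pass (edgeR adjusted p = 0.183 in ΔPod against WT and 0.615 in K2A against ΔPod).

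Atp6v0d2 (chr4:19876841-19922605, minus strand), the d2 subunit of V0, varied little. It was at 37.2, 31.8 and 41.8 CPM in WT 1, WT 2 and WT 3, at 36.8, 37.6 and 52.4 CPM in ΔPod 1, ΔPod 2 and ΔPod 3, and at 27.7, 29.8 and 35.1 CPM in K2A 1, K2A 2 and K2A 3. All K2A libraries were below all ΔPod libraries, while WT overlapped both. The log2 fold change between K2A and ΔPod was -0.45 (SE 0.26, edgeR adjusted p = 1), and with the slope -0.47 (SE 0.11, edgeR adjusted p = 0.0963). It passed in the slope fit without K2A 3 (-0.43, edgeR adjusted p = 0.0368). Atp6v0d2 is also expressed by osteoclasts and macrophages. The summed level of 11 macrophage and osteoclast markers was 201 to 250 CPM in WT, 203 to 367 in ΔPod and 151 to 341 in K2A. Of markers shared with osteoclasts, Acp5 was at 53.4 to 86.5 CPM, Ctsk at 2.4 to 15.7 CPM, Mmp9 at 0.242 to 1.23 CPM and Gpnmb at 0.0277 to 0.411 CPM. The part of these cells in the Atp6v0d2 values was not tested.

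The paralogs that serve most other cells were set beside these subunits. Atp6v1b2, the B2 subunit, was at 486 ± 81.5 CPM in WT, 291 ± 140 in ΔPod and 308 ± 22.6 in K2A (SD, n = 3), with an edgeR adjusted p of 0.390 and 0.602 against WT. Per kilobase, Atp6v1b1 was between 0.108 and 0.488 times Atp6v1b2, highest in ΔPod 3 and K2A 3. Atp6v0d1, the d1 subunit, was at 172 ± 9.99 CPM in WT, 129 ± 23.5 in ΔPod and 157 ± 31.8 in K2A (SD, n = 3). Per kilobase, Atp6v0d2 was 0.112 to 0.161 times Atp6v0d1 in WT, 0.188 to 0.223 times in ΔPod and 0.105 to 0.186 times in K2A. The ΔPod values thus lay above all WT and all K2A values in this ratio. Atp6v1g1, the G1 subunit, was at 128, 237 and 123 CPM in WT, 865, 371 and 112 in ΔPod and 302, 329 and 108 in K2A, a pattern like that of Atp6v1g3. The ratio of Atp6v1g3 to Atp6v1g1 per kilobase accordingly stayed between 0.239 and 0.390 in all 9 libraries. It was lowest in K2A 3 and highest in ΔPod 3, the libraries with the highest slopes.

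Of 22 other subunits and accessory proteins of the pump, 21 could be tested and 0 passed in any comparison with the group alone. Their median log2 fold change was -0.31 in ΔPod and -0.13 in K2A against WT. The most abundant were Atp6v0b, at 150.5 to 1738 CPM over the 9 libraries, Atp6v1a at 329 to 735 CPM, Atp6v1e1 at 298 to 629 CPM and Atp6v1b2, given above. Atp6v0b and Atp6v1e1 were highest in ΔPod 1 and lowest in K2A 3, as were Atp6v1g3 and Atp6v1g1, and Atp6v1a was lowest in K2A 2. With the slope, Atp6v0a4, the kidney form of the large V0 subunit and, like Atp6v1b1, a distal renal tubular acidosis gene, was higher in K2A by 0.41 (SE 0.11, edgeR adjusted p = 0.0311), from 298 ± 61.6 CPM in WT and 322 ± 135 CPM in K2A (SD, n = 3). In the same fit Atp6ap1, an accessory subunit, was lower in both mutants, with log2 fold changes of -0.49 (SE 0.12, edgeR adjusted p = 0.0271) in ΔPod and -0.56 (SE 0.12, edgeR adjusted p = 0.0135) in K2A. Atp6v1h was lower in ΔPod in that fit by a log2 fold change of -0.37 (edgeR adjusted p = 0.0429), and Atp6v0a1 by -0.66 (edgeR adjusted p = 0.0269). Neither passed between K2A and ΔPod. These 4 genes were chosen after their values were seen. In the fit with the slope, 3 of the 21 were lower and 0 higher in ΔPod, and 1 was lower and 1 higher in K2A. Of all genes, 14.3% passed in ΔPod and 15.9% in K2A in that fit.

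Foxi1 (chr11:34204338-34208089, minus strand) was at 24.7, 22.2 and 38.8 CPM in WT 1, WT 2 and WT 3, at 11.4, 21.9 and 45.1 CPM in ΔPod 1, ΔPod 2 and ΔPod 3, and at 17.01, 19.5 and 43.7 CPM in K2A 1, K2A 2 and K2A 3. Group means of 28.6 ± 8.95, 26.1 ± 17.2 and 26.7 ± 14.8 CPM (SD, n = 3) were close compared with their spread. Foxi1 had a log2 fold change of -0.13 (SE 0.56, edgeR adjusted p = 0.906) in ΔPod and -0.10 (SE 0.56, edgeR adjusted p = 0.955) in K2A against WT, and both became 0.24 (SE 0.18) with the slope, without passing.

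The genes nearest to Foxi1 were found by the root-mean-square difference of centred log2 CPM over the 9 libraries, among 18066 other tested genes. The 5 nearest outside the group were Cdc25a, Creb1, Ptar1, Fam135a and Zbtb21, at 0.103 to 0.130. Of the other members, Slc4a9 ranked 430 (0.273), Rhcg 650 (0.296) and Slc26a4 1864 (0.379), while Atp6v1g3 ranked 15944. For Slc4a1 the nearest genes were Tpp1, Ctc1, App, Arhgap35 and Os9, at 0.0931 to 0.11, and Atp6v1b1 ranked 435. For Slc26a4 they were Unc5a, Kcne1, Irf2bp2, Sntb2 and Igfn1, at 0.104 to 0.162, and Rhcg ranked 750. All points of this measure share the same 9 libraries with their slopes, and the nearest genes were not intercalated cell genes.

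Hmx2 (chr7:131548773-131558014, plus strand), a homeobox factor best known from the inner ear, was the least abundant member. It was at 8.76, 14.2 and 9.29 CPM in WT 1, WT 2 and WT 3, at 27.2, 19.9 and 18.2 CPM in ΔPod 1, ΔPod 2 and ΔPod 3, and at 13.4, 17.2 and 13.7 CPM in K2A 1, K2A 2 and K2A 3. Every ΔPod library exceeded every WT and every K2A library, and K2A overlapped WT. The mean of 21.8 ± 4.76 CPM in ΔPod compared with 10.8 ± 2.999 CPM in WT and 14.8 ± 2.09 CPM in K2A (SD, n = 3).

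The log2 fold change of Hmx2 was 1.02 (SE 0.30, edgeR adjusted p = 0.230) between ΔPod and WT, and over the alternative fits it ranged from 0.74 to 1.25, with an adjusted p from 0.0120 to 0.748. Within slope sign, ΔPod 3 stood at 2.01 times the mean of WT 1 and WT 3, and the mean of ΔPod 1 and ΔPod 2 at 1.66 times WT 2. The slope itself was not matched there, since ΔPod 1 and ΔPod 2 had lower slopes than WT 2. With the slope Hmx2 was higher in ΔPod by 0.85 (SE 0.18, edgeR adjusted p = 0.0167). That call was lost without WT 1 (edgeR adjusted p = 0.0694), without WT 3 (0.0627) and without ΔPod 3 (0.0714), and with the sign of the slope as a term (0.0578). DESeq2 gave an adjusted p of 0.0562 for it. Between K2A and WT the log2 fold change was 0.46 (SE 0.30, edgeR adjusted p = 0.691), and between K2A and ΔPod -0.56 (SE 0.30, edgeR adjusted p = 1). The latter passed in the slope fit without K2A 3 (-0.65, edgeR adjusted p = 0.04).

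Car2 (chr3:14886273-14900770, plus strand), the cytosolic carbonic anhydrase of intercalated cells and also of proximal tubule, was the most abundant member and the most even. It was at 405, 402 and 377 CPM in WT 1, WT 2 and WT 3, at 562, 463 and 507 CPM in ΔPod 1, ΔPod 2 and ΔPod 3, and at 540, 531 and 484 CPM in K2A 1, K2A 2 and K2A 3. All 6 mutant libraries lay above all 3 WT libraries. Car2 had a log2 fold change of 0.37 (SE 0.23, edgeR adjusted p = 0.444) in ΔPod and 0.39 (SE 0.23, edgeR adjusted p = 0.620) in K2A, so the separation did not pass the test across all genes. With the slope the values were 0.33 (SE 0.11, edgeR adjusted p = 0.0855) and 0.36 (SE 0.11, edgeR adjusted p = 0.0581), and the K2A value passed in the slope fit without ΔPod 1 (0.37, edgeR adjusted p = 0.0335). Within slope sign the ratio to WT was 1.295 and 1.28 in ΔPod and 1.24 and 1.33 in K2A.

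Markers of other tissue moved in some of these libraries. The summed level of 9 adipocyte markers was 32.5 to 80.1 CPM in WT, 24.5 to 529 in ΔPod and 64.5 to 1200 in K2A, and that of 8 urothelial markers was 7.34 to 13.3, 1.19 to 54.5 and 11.7 to 119 CPM. The sum of 10 proximal tubule markers was 14416 to 22748 CPM in WT, 7429 to 18462 in ΔPod and 8947 to 11986 in K2A. The part of fat, urothelium or proximal tubule in the Car2 values was not tested.

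Rhcg (chr7:79593363-79617657, minus strand), the ammonia channel through which collecting duct cells excrete acid as ammonium, was at 108, 75.0 and 120 CPM in WT 1, WT 2 and WT 3. It was at 23.7, 52.8 and 155 CPM in ΔPod 1, ΔPod 2 and ΔPod 3 and at 58.6, 57.1 and 125 CPM in K2A 1, K2A 2 and K2A 3. The ΔPod libraries held both extremes and the groups overlapped. Rhcg had a log2 fold change of -0.39 (SE 0.64, edgeR adjusted p = 0.754) in ΔPod and -0.33 (SE 0.64, edgeR adjusted p = 0.868) in K2A against WT, and with the slope -0.090 (SE 0.20) and, of opposite sign, 0.14 (SE 0.21). Rhcg is made by principal cells as well. The sum of 14 principal cell markers was 1026 to 1520 CPM in WT, 653 to 1432 in ΔPod and 1197 to 1375 in K2A. This sum was lowest in ΔPod 1 and highest in WT 1, whereas Rhcg was lowest in ΔPod 1 and highest in ΔPod 3. The part of principal cells in the Rhcg values was not tested.

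**Figure D4:**
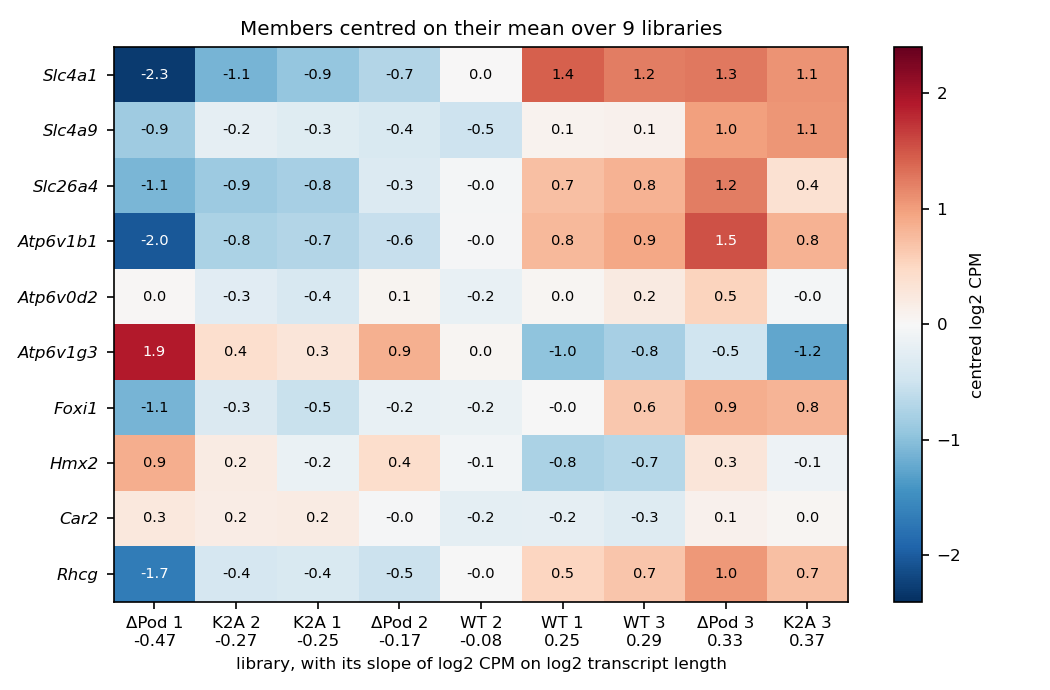
Log2 CPM of each gene (rows) centred on its mean over the 9 libraries (columns, ordered by length slope, which is printed under each name); red is above and blue below the mean. Slc4a1, Slc26a4, Atp6v1b1 and Rhcg turn from blue to red from left to right, Atp6v1g3 turns the other way, and Car2 and Atp6v0d2 change little.

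The members were also compared between the libraries of either slope sign. Between the 5 libraries of negative slope and the 4 of positive slope, 7 of the 10 genes did not overlap, where 53.1% of all genes did not, a share not far from that of the members. Slc4a1, Slc4a9, Slc26a4, Atp6v1b1, Foxi1 and Rhcg were lower in the negative-slope libraries (6 of 10, against 26.6% of all genes), and Atp6v1g3 was higher (1 of 10, against 26.5%). The difference in mean log2 CPM was -2.26 for Slc4a1, -1.84 for Atp6v1b1, -1.42 for Slc26a4, -1.33 for Rhcg, -1.05 for Foxi1 and -1.01 for Slc4a9. It was -0.34 for Atp6v0d2, 0.17 for Car2, 0.57 for Hmx2 and 1.57 for Atp6v1g3. The 5th and 95th percentiles over all genes were -2.13 and 1.95, so Slc4a1 lay outside that range.

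Across 17599 genes with a transcript length, this difference had a Spearman correlation of -0.61 with length and -0.14 with the GC content of the transcript. With the exon number of the transcript the Spearman correlation was -0.45. Genes are not independent replicates, and all of them share the 9 libraries. Length alone did not order the members. Atp6v1b1 (1999 bases), Car2 (1788 bases) and Atp6v1g3 (1887 bases) have transcripts of similar length and differed by -1.84, 0.17 and 1.57. Their GC contents are 53.2%, 49.1% and 39.4% and their exon numbers 14, 7 and 3. Hmx2 (3102 bases, 2 exons) and Slc26a4 (3075 bases, 21 exons) likewise differed in sign. GC content and exon number did not order all members either. Foxi1, also with 2 exons, differed by -1.05, and Hmx2, with a GC content of 55.0%, by 0.57.

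**Figure D5:**
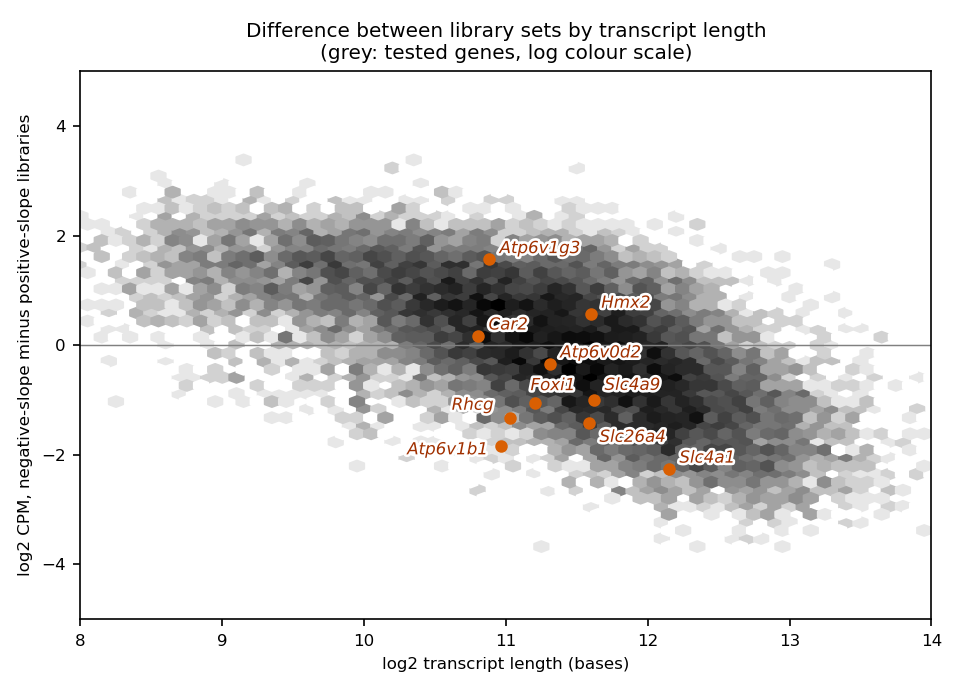
Difference in log2 CPM between the 5 libraries of negative and the 4 of positive length slope (vertical axis) against log2 transcript length in bases (horizontal axis); grey cells count tested genes on a log colour scale and orange points are the 10 members. Long transcripts are lower in the negative-slope libraries, Slc4a1 lies lowest among the members at -2.26, and Atp6v1g3 and Atp6v1b1, of similar length, lie at 1.57 and -1.84.

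Other genes of the cell type were read from a list of 24 intercalated cell genes, all tested. With the group alone 0 passed in any comparison, and the median log2 fold change was -0.19 in ΔPod and -0.21 in K2A against WT. Among the most abundant were Car12, a membrane carbonic anhydrase at 46.5 to 341 CPM, the transcription factor Tfcp2l1 at 11.4 to 651 CPM and Tmem213 at 55.7 to 172 CPM. Car12 and Tfcp2l1 were lowest in ΔPod 1, like most members, and Tmem213 was highest there, like Atp6v1g3. With the slope, 1 gene of the list was higher and 0 lower in ΔPod, and 1 was higher and 2 lower in K2A. Of all genes, 14.3% passed in ΔPod and 15.9% in K2A in that fit. Dmrt2, a transcription factor enriched in type A cells, was the one gene of the list that passed in both mutants with the slope. It was at 3.35, 3.92 and 3.31 CPM in WT, 6.08, 7.97 and 10.3 in ΔPod and 8.27, 8.48 and 6.46 in K2A, so all 6 mutant libraries exceeded WT. Its log2 fold change was 1.20 (SE 0.29, edgeR adjusted p = 0.122) in ΔPod and 1.13 (SE 0.29, edgeR adjusted p = 0.160) in K2A, and with the slope 1.24 (edgeR adjusted p = 0.0076) and 1.17 (edgeR adjusted p = 0.0093). Dmrt2 and the genes of the next sentences were named after their values were seen.

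With the slope, Avpr1a, the vasopressin V1a receptor, was lower in K2A by a log2 fold change of -1.15 (SE 0.21, edgeR adjusted p = 0.0075), at 6.91 ± 0.719 CPM against 17.01 ± 3.26 CPM in WT (SD, n = 3). Spink8 was lower in K2A in that fit, at -0.69 (edgeR adjusted p = 0.0249), whereas its estimate without the slope was 0.39, of opposite sign. Among 17 further acid-base genes, 0 passed with the group alone and 3 were lower in each mutant with the slope. In that fit 8.13% of all genes were lower in ΔPod and 8.41% in K2A, and 14.3% and 15.9% passed in either direction. The 3 genes were Car4, the luminal carbonic anhydrase of proximal tubule, the sulfate and anion exchanger Slc26a1, and the cotransporter Slc12a7. Car4 was at 318 ± 43.9 CPM in WT, 151 ± 42.2 in ΔPod and 140 ± 78.2 in K2A (SD, n = 3), opposite in direction to Car2. Its log2 fold change with the slope was -1.55 in ΔPod (edgeR adjusted p = 0.0041) and -1.72 in K2A (edgeR adjusted p = 0.0024).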

How the data were processed

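Whole-number counts per gene symbol in 9 whole-kidney RNA libraries were used as deposited, in a pair of tables that each held WT and 1 mutant group. The submitters' processing notes list Trim Galore 0.6.3, STAR 2.7.3a, featureCounts 2.0.1, DESeq2 1.30.0 and the build mm10 without their roles; per the labels, libraries were made with a ScriptSeq kit from purified mRNA, and the strand setting of the counting is not given in the sources used here. No exon of another GENCODE gene overlaps an exon of a member. Of 52163 shared symbols, 3 whose WT counts differed between the tables were left out, and the WT counts of all 10 members were the same in both.

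All 9 libraries entered 1 fit by group in edgeR 4.0.16 (limma 3.58.1, R 4.3.3): filterByExpr, TMM scaling, quasi-likelihood test, Benjamini-Hochberg adjustment over 18067 genes, threshold 0.05. CPM values are after TMM, and intervals for single values were not formed. Standard errors (SE) of the edgeR fits were computed as the size of the log2 fold change divided by the square root of the quasi-likelihood F statistic. Transcript lengths came from GENCODE on mm10. The edgeR fit by group was tested for ΔPod against WT on simulated counts that held no length slope. The fits with the slope were not tested in this way. Alternatives were RLE scaling, DESeq2 1.42.0, no filter, the 6 libraries compared, a replicate block, the length slope as a covariate, both together, and each library left out; the sign of the slope as a term, and left-out libraries with the slope, were added after seeing the data. Named genes were the members, Ybx1, 3 paralogs, the genes nearest to Foxi1, Slc4a1 and Slc26a4, and for other lists called genes or the up to 4 most abundant. Members, lists and the use of the length slope were chosen with earlier results of these data known.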

Additional observations from a re-analysis of the deposited data

How the results depend on the processing

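In the edgeR and DESeq2 fits without the slope, 0 of the 10 genes passed in any comparison under RLE scaling, DESeq2, no filter, the 6 libraries compared, a replicate block, or with any library left out. With the length slope 3, 1 and 1 passed between ΔPod and WT, K2A and WT, and K2A and ΔPod, and with the slope and the block together 0, 1 (Slc4a9, log2 fold change 0.74, edgeR adjusted p = 0.0434) and 0, against 3.55%, 5.8% and 0.00553% of all genes. With the sign of the slope as a term 0 passed. Over fits that left out a library of the groups compared, with or without the slope, the members that passed ranged from 0 to 3, 0 to 1 and 0 to 3. Leaving out a library of the group not compared, with the slope, let Slc4a1, Slc26a4 and Car2 pass between K2A and WT as given above.

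Calls over all genes between ΔPod and WT numbered 774 with DESeq2, 270 with the block, 2583 with the slope, 641 with both, 54 with the 6 libraries and 715 with the slope sign, and 23 (without WT 3) to 3226 (without ΔPod 1, with the slope) with a library left out. Between K2A and WT they numbered 754, 232, 2869 and 1048 with DESeq2, block, slope and both, 739 with the slope sign, and 3 (without WT 1) to 3774 (without K2A 3, with the slope) with a library left out. Between K2A and ΔPod they numbered 13 with DESeq2, 34 with the slope, 1 with both, and 0 to 3012 (without K2A 3, with the slope) with a library left out.

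Log2 fold changes of the opposite sign to the main value were as follows, and none of these main values had passed. With the slope they were 0.082 for Slc26a4, 0.023 for Atp6v1b1 and 0.24 for Foxi1 between ΔPod and WT, -0.20 for Atp6v1g3, 0.24 for Foxi1 and 0.14 for Rhcg between K2A and WT, and 0.041 for Slc4a1 between K2A and ΔPod. With the slope and the replicate block they were 0.088 for Slc26a4, 0.10 for Atp6v1b1 and 0.12 for Foxi1 in ΔPod, 0.043 for Atp6v1b1, -0.30 for Atp6v1g3, 0.16 for Foxi1 and 0.20 for Rhcg in K2A, and 0.017 for Slc4a1 between the mutants. With the slope sign they were 0.063 for Foxi1 in ΔPod, -0.14 for Atp6v1g3 and 0.13 for Foxi1 in K2A, and 0.10 for Slc4a1 between the mutants. The block alone gave -7.19e-05 for Slc4a9 in ΔPod and 0.044 for Slc4a1 between the mutants, and Car2 between the mutants was -0.047 with RLE scaling and -0.034 with DESeq2. The cause was not tested.

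With a library left out, the lowest value came without ΔPod 3 (the slope not in the fit) for 6 ΔPod to WT differences that crossed 0: -0.55 for Slc4a9, -1.26 for Slc26a4, -1.76 for Atp6v1b1, -0.026 for Atp6v0d2, -0.81 for Foxi1 and -1.43 for Rhcg. Their highest values were 0.66, 0.13, 0.21, 0.36, 0.35 and 0.044. Slc4a1 was also lowest without ΔPod 3, at -2.35, and stayed below 0 in every alternative fit. Between K2A and WT the lowest came without K2A 3, at -0.22 for Slc4a9, -1.41 for Atp6v1b1, -0.70 for Foxi1 and -0.85 for Rhcg, and, with the slope, -0.32 for Atp6v1g3, and the highest were 0.81, 0.32, 0.35, 0.43 and 0.83. Slc4a1 (-2.08) and Slc26a4 (-1.45) were also lowest without K2A 3, and both stayed below 0 in every alternative fit. Between K2A and ΔPod the lowest came without K2A 3 and the highest without ΔPod 3: -1.13 and 1.35 for Slc4a1, -0.42 and 0.93 for Slc4a9, -1.13 and 0.35 for Slc26a4, -1.11 and 1.11 for Atp6v1b1, -0.54 and 0.69 for Foxi1, and -0.44 and 1.07 for Rhcg. Car2 ran from -0.044 (without ΔPod 2) to 0.098 (without ΔPod 1).

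Correlations between the deviations of same-numbered libraries ran from -0.62 to 0.85. Only those of WT 1 with ΔPod 1 (-0.62) and with K2A 1 (-0.54) were negative. Those among WT 3, ΔPod 3 and K2A 3, all of positive slope, were 0.71 to 0.85. The deviations also carry the length slope, so they cannot decide whether replicate numbers pair the samples. The block was therefore used only as an alternative. At these depths counting error is small beside the spread between libraries, which limits what 3 libraries a group can show.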

Other observations

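Aqp4, a basolateral water channel of principal cells, was at 34.7, 19.9 and 18.9 CPM in WT, 44.2, 60.9 and 43.5 in ΔPod and 48.2, 42.7 and 52.9 in K2A, so that all 6 mutant libraries lay above all 3 WT libraries. Its log2 fold change was 1.01 (SE 0.32, edgeR adjusted p = 0.251) in ΔPod and 0.97 (SE 0.32, edgeR adjusted p = 0.278) in K2A against WT, and 1.07 and 1.01 with the length slope, where it passed (edgeR adjusted p = 0.0266 and 0.0255). It was the one gene of 14 principal cell markers that did, and it was chosen after its values were seen. Of all genes, 14.3% passed in ΔPod and 15.9% in K2A in that fit. Aqp2, the apical water channel of the same cells, was at 515, 334 and 233 CPM in WT, 190, 230 and 321 in ΔPod and 654, 609 and 339 in K2A.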
